A study of Mus musculus with 2 samples.

Results

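Gpx6 mTECs are medullary thymic epithelial cells (mTECs) that carry the transcript of Gpx6, which encodes a secreted glutathione peroxidase known from olfactory tissue, while they also carry Aire. The cells described here were chosen by a rule that used measured values. A cell was kept if it had at least 500 detected genes, at least 1000 unique molecular identifiers (UMIs, each counting 1 captured transcript) and at most 15% mitochondrial UMIs. Of the kept cells, a Gpx6 mTEC had at least 3 UMIs of Gpx6 and the unnamed gene 4922502D21Rik together, at least 2 of them per 10000 UMIs of the cell, at least 1 UMI of Aire and none of Ptprc, and under 10 UMIs per 10000 of the tuft-cell genes Trpm5, Dclk1 and Alox5ap. The rule found 645 of 13307 kept cells. They were set against Aire-positive cells that met the same limits on Ptprc and tuft genes and had 0 UMIs of Gpx6 and 4922502D21Rik, called comparators below.

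The study used single-cell RNA sequencing of EPCAM-positive, Ly51-negative cells sorted from mouse thymus to ask what changes when Ikaros is removed from thymic epithelium. It has 2 libraries, 1 labelled Foxn1-Cre(+) Ikarosfl/fl, with 2 floxed Ikaros alleles, and 1 labelled Foxn1-Cre(+) Ikaros+/fl, with 1 floxed and 1 unmodified allele, and both carry Foxn1-Cre, which is active in thymic epithelium of cortex and medulla alike. The submitters' names for the deposited matrices state the opposite, control for the library labelled fl/fl and knockout for the one labelled +/fl, so each direction is given between libraries as labelled. Age, sex, number of mice and the deleted exons are not given in the labels, and no library has a replicate, so sizes are given with intervals that cover counting error only and no test of genotype was possible.

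Medullary thymic epithelial cells show developing T cells the antigens of other tissues, so that self-reactive T cells are removed or become regulatory T cells. Aire, a nuclear protein of mature mTECs, switches on many of those tissue antigens, and Fezf2 acts on a further set. Cells that have passed through the Aire stage can take on programmes that resemble tuft cells, keratinocytes, muscle and other peripheral cells. Ikaros, encoded by Ikzf1, is a zinc-finger transcription factor best known from lymphocyte development, and it binds DNA with the core letters GGGAA.

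The marker set that came with the population holds 6 genes, of which the rule used Gpx6 and 4922502D21Rik. The other 4, called companions below, are Lbhd2 (an LBH-domain gene), Epyc (epiphycan, a small leucine-rich proteoglycan of cartilage), Iglc1 (a constant region of the immunoglobulin lambda light chain) and Napsa (napsin A, an aspartic protease of lung and kidney). In GENCODE M21, the annotation of mouse build GRCm38 in which the identifiers were looked up, the 6 genes lie on 6 chromosomes. Gpx6 is at chr13:21312125-21319624 on the plus strand, 4922502D21Rik at chr6:129322164-129331796 on the minus strand and Lbhd2 at chr12:111406809-111412090 on the plus strand. Epyc is at chr10:97644068-97682454 on the plus strand, Iglc1 at chr16:19061618-19062071 on the minus strand and Napsa at chr7:44572380-44586862 on the plus strand.

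The bases just before the start of Gpx6 and of 2 companions are shown because the study concerns Ikaros, whose core letters can be looked for there. Each run comes from the 250 bases before a RefSeq transcript start (GRCm38.p6), 5′ to 3′ on the plus strand, and capitals mark GGGAA or its reverse complement TTCCC, searched on both strands with overlaps counted. RefSeq places the start of Gpx6 78 bases inside the gene as GENCODE has it, so the Gpx6 run stops 172 bases in, before the GENCODE gene, and lies at chr13:21311953-21312124, while the Lbhd2 run lies at chr12:111406559-111406808 and the Epyc run, of the first of 2 annotated starts, at chr10:97643818-97644067.
Gpx6: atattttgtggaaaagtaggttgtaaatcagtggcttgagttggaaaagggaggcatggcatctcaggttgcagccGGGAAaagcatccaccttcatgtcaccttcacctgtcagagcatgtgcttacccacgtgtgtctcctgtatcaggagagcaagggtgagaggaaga
Lbhd2: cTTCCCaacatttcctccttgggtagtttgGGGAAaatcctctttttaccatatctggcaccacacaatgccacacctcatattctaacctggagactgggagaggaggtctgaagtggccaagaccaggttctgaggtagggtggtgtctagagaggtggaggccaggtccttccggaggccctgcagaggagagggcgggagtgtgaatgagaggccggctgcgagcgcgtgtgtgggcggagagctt
Epyc: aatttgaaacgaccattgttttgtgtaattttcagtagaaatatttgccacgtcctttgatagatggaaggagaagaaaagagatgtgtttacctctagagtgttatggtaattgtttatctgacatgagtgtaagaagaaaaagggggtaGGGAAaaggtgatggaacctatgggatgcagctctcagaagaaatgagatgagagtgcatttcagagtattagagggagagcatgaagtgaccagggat

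Of the 6 marker genes, 3 had such a run in the table used. Gpx6 had 1 match, at base 77, Lbhd2 had 2, at bases 2 and 31, and Epyc had 1, at base 152. At least 1 match stood in 56.2% of 32851 runs of 250 bases before annotated transcript starts, so a match of 5 letters is common, and it describes the letters and not a site.

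Gpx6 mTECs made up a smaller share of the library labelled fl/fl. In the library labelled fl/fl 135 of 8208 kept cells passed, 1.64% (95% exact Clopper-Pearson interval 1.38% to 1.94%), against 510 of 5099 in the library labelled +/fl, 10.0% (9.19% to 10.9%). Among Aire-positive cells that met the Ptprc and tuft limits, the share was 3.31% of 4079 cells in the library labelled fl/fl (2.78% to 3.91%) and 36.8% of 1387 cells in the library labelled +/fl (34.2% to 39.4%). The share was thus 6.08 times higher in the library labelled +/fl over kept cells and 11.1 times higher over Aire-positive cells. These shares come from the values that chose the cells and stand as a description of 2 libraries.

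**Figure D1:**
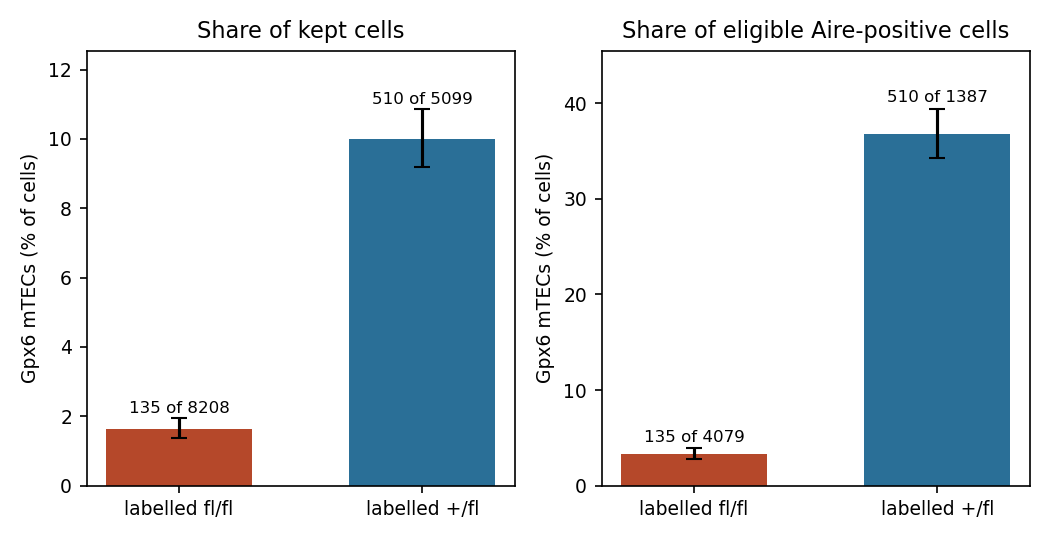
Share of Gpx6 mTECs, in % of kept cells on the left and in % of eligible Aire-positive cells on the right, for the library labelled fl/fl and the library labelled +/fl. Bars start at 0, error bars are 95% exact Clopper-Pearson intervals, and both bars of the library labelled fl/fl, at 1.64% and 3.31%, lie below those of the library labelled +/fl, at 10.0% and 36.8%.

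Most cells with Gpx6 were at the Aire stage in both libraries. Of cells past the limits on Gpx6 and 4922502D21Rik alone, 142 of 149 cells labelled fl/fl had an Aire UMI (95.3%), as had 585 of 645 cells labelled +/fl (90.7%). Between the members and the comparators stood 472 Aire-positive cells of the library labelled fl/fl and 275 of the library labelled +/fl, which had some UMIs of the 2 genes but too few to pass. Any UMI of the 2 genes was found in 9.26% of kept cells of the library labelled fl/fl and in 25.7% of those of the library labelled +/fl.

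Blood cells, which should lack both genes, gave the background. Among kept cells with at least 2 UMIs of Ptprc, the pan-leukocyte gene, and none of Epcam, 0 of 103 had any UMI of the 2 genes in the library labelled fl/fl, which allows a share of up to 2.91% (3 counts of the total), and 10 of 87 in the library labelled +/fl (11.5%). None of these blood cells reached 3 UMIs in either library. Their median depths were 4440 and 7397 UMIs in the libraries labelled fl/fl and +/fl.

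The libraries also differed in depth and in sex-linked transcripts. The library labelled fl/fl had 99871505 UMIs over 11095 barcodes and the library labelled +/fl 85260592 over 7304, with medians of 8542.5 and 11057 UMIs per kept cell. Gpx6 mTECs were the deeper cells in both, with a median of 16515 UMIs in Gpx6 mTECs and 11088 in comparators labelled fl/fl, and of 25170.5 and 12183.5 labelled +/fl. When cells were thinned to 5000 UMIs, 2531 cells labelled fl/fl and 1141 labelled +/fl were too shallow and left out, and 55 of the other 5677 labelled fl/fl passed, and 227 of the other 3958 labelled +/fl. These shares of 0.969% and 5.74% are thus over fewer cells than the shares above. Xist, which coats and silences an X chromosome in female cells, was at 0.885 UMIs per 1000000 (CPM) in kept cells labelled fl/fl and at 1329 CPM in those labelled +/fl. Ddx3y, a Y-linked gene, was at 64.9 CPM in the library labelled fl/fl and had 0 UMIs in the library labelled +/fl, so genotype and sex of the mice cannot be told apart. Of kept barcodes, 11 occurred in both libraries, and none of those was a Gpx6 mTEC in both.

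Ikzf1 itself was detected in Gpx6 mTECs of both libraries. It was at 60.5 CPM in Gpx6 mTECs labelled fl/fl (95% exact Poisson interval 51.1 to 71.1) and at 113 CPM in those labelled +/fl (107 to 119), a difference of -0.89 on the log2 scale with 1 CPM added. In comparators it was at 42.5 CPM labelled fl/fl and 40.015 CPM labelled +/fl. A 3′ tag outside the deleted part would still be counted, and the labels do not name that part, so these values check neither label.

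The selecting genes were, by construction, present in all members, and Gpx6 carried most of the signal. Gpx6 was at 464 CPM in Gpx6 mTECs labelled fl/fl and 614 CPM in those labelled +/fl, and 4922502D21Rik was at 85.7 and 127 CPM. Both genes together were seen in 14 of 135 members labelled fl/fl and 193 of 510 labelled +/fl, while 12 and 11 members passed on 4922502D21Rik alone. The sum of the 2 genes per 10000 UMIs had a median of 4.06 over members labelled fl/fl (lowest 2.02, highest 40.8) and 6.10 over members labelled +/fl (2.01 to 120). Near the threshold, 17 members labelled fl/fl and 19 labelled +/fl had exactly 3 UMIs, while 103 and 54 eligible cells had exactly 2. The cells at 3 UMIs held 295 CPM of Gpx6 labelled fl/fl and 257 CPM labelled +/fl, and the cells at 2 UMIs 71.7 and 95.9 CPM.

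The companions separated the libraries. Lbhd2 was at 32.5 CPM in Gpx6 mTECs labelled fl/fl (25.8 to 40.5) and 36.7 CPM in their comparators, and at 282 CPM in Gpx6 mTECs labelled +/fl (273 to 291) and 73.9 CPM in theirs. Labelled fl/fl it was thus no higher than in comparators (log2 ratio -0.17), and 3.77 times higher in the library labelled +/fl. Napsa was at 74.5 CPM in Gpx6 mTECs labelled fl/fl and 52.0 CPM in comparators, a log2 ratio of 0.51, and at 262 CPM against 38.1 CPM in the library labelled +/fl, 6.73 times higher. Iglc1 was at 56.8 CPM in Gpx6 mTECs labelled fl/fl and 62.9 CPM in comparators, and at 265 CPM against 49.6 CPM in the library labelled +/fl, 5.25 times higher. Iglc3, a further constant gene of the lambda chain, lies 3.16 kb from Iglc1. It was at 147 CPM against 139 CPM labelled fl/fl and at 197 CPM against 41.2 CPM labelled +/fl. Whether reads are shared between Iglc1 and Iglc3 was not tested.

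Epyc lay more than 2-fold above comparators in Gpx6 mTECs of both libraries. It was at 47.8 CPM in Gpx6 mTECs labelled fl/fl (39.5 to 57.3) and 14.5 CPM in comparators (13.4 to 15.6), 3.15 times higher. In the library labelled +/fl it was at 132 CPM (126 to 138) against 8.68 CPM (6.82 to 10.9), 13.7 times higher. With cells thinned to 5000 UMIs before selection, the log2 ratio of Epyc was 0.71 labelled fl/fl and 3.70 labelled +/fl, and that of Napsa labelled fl/fl was 1.02, so which of these companions passed 2-fold labelled fl/fl depended on the thinning.

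Over the 4 companions the median log2 ratio was 0.18 in the library labelled fl/fl, where 1 of 4 was at least 2-fold higher, and 2.57 in the library labelled +/fl, where 4 of 4 were. Over all genes tested, meaning genes with at least 50 UMIs in members and comparators together and 25 CPM in either, 138 of 5953 were at least 2-fold higher in Gpx6 mTECs labelled fl/fl (2.32%) and 587 of 6043 in those labelled +/fl (9.71%). At least 2-fold lower were 158 genes labelled fl/fl (2.65%) and 442 labelled +/fl (7.31%). The population was picked with earlier values of these genes known, so the counts describe it. Without thinning, Lbhd2 and Iglc1 labelled fl/fl were thus not above comparators, Napsa was within 2-fold, and Epyc was over 2-fold higher. After thinning, the log2 ratios labelled fl/fl were -2.08 for Lbhd2, -0.46 for Iglc1, 1.02 for Napsa and 0.71 for Epyc. With at least 3 Aire UMIs in members and comparators they were -0.49, -0.22, 0.27 and 1.05. In each of these settings only part of the marker set went with the name there.

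The companions were also counted cell by cell. At least 2 of the 4 were detected in 44 of 135 Gpx6 mTECs labelled fl/fl (32.6%, 24.8% to 41.2%) and in 411 of 510 labelled +/fl (80.6%, 76.9% to 83.9%). In comparators the share was 16.1% of 3472 cells labelled fl/fl and 12.6% of 602 labelled +/fl. With the same cells thinned to 5000 UMIs, it was 12.9% of 132 Gpx6 mTECs labelled fl/fl and 55.8% of 486 labelled +/fl, and 6.46% and 4.78% of their comparators. No companion was seen in 39 members labelled fl/fl and 8 labelled +/fl. Lbhd2 was seen in 28.1% of members labelled fl/fl and 90.0% of those labelled +/fl, and in 15.2% and 59.7% of those cells after thinning.

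**Figure D2:**
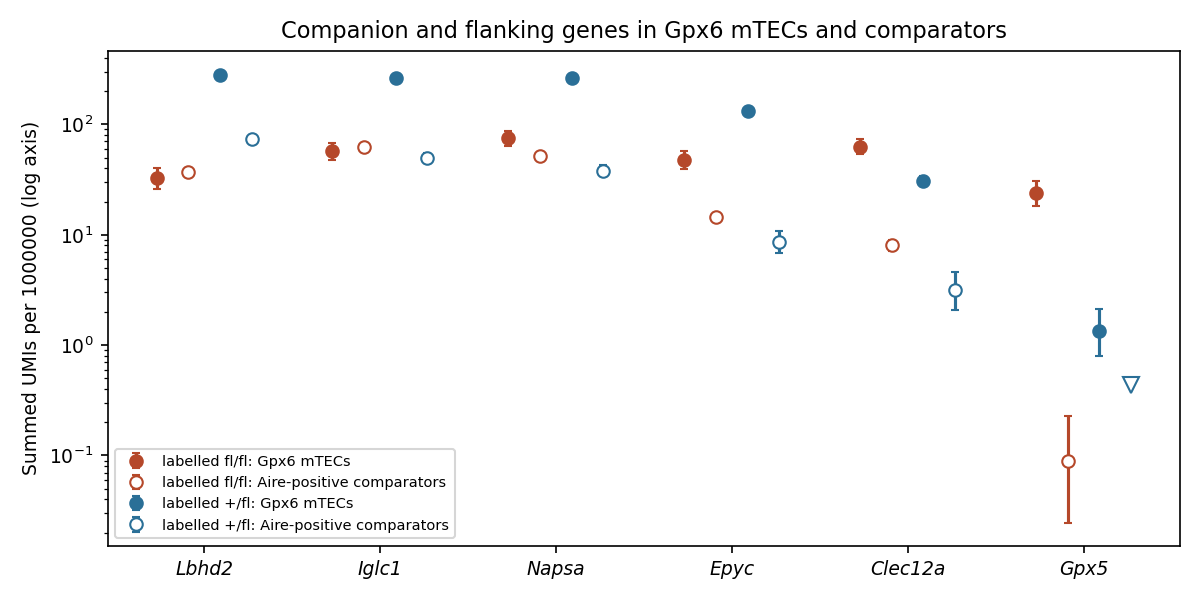
Summed UMIs per 1000000 (log axis) of the 4 companions and of the neighbouring genes Clec12a and Gpx5 in Gpx6 mTECs (filled) and Aire-positive comparators (open), labelled fl/fl in red and labelled +/fl in blue. Error bars are 95% exact Poisson intervals and the open triangle is the upper limit of a gene with 0 UMIs. Intervals of Gpx6 mTECs and comparators overlap for Lbhd2 and Iglc1 labelled fl/fl and are apart for both genes labelled +/fl, while those of Napsa, Epyc and Clec12a are apart in both libraries.

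The amount of Gpx6 went with the amount of the companions in the library labelled +/fl. From eligible cells with 0 UMIs of the selecting genes through those with under 2, 2 to 5, 5 to 10 and 10 or more per 10000, Epyc was at 14.5, 25.1, 46.2, 52.9 and 27.7 CPM labelled fl/fl, where the top step held 12 cells. Labelled +/fl it was at 8.68, 23.3, 50.8, 171 and 282 CPM. Napsa was at 52.0, 82.3, 59.3, 134 and 9.24 CPM labelled fl/fl and at 38.1, 96.3, 143, 338 and 467 CPM labelled +/fl. Napsa and Epyc thus went up at each step labelled +/fl, which neither did labelled fl/fl. Aire was at 438, 512, 623, 589 and 675 CPM labelled fl/fl and at 151, 246, 312, 424 and 482 CPM labelled +/fl. Ccl21a, a chemokine of immature mTECs, was at 1919 CPM in the lowest step and 564 in the highest labelled fl/fl, and at 7106 and 717 CPM labelled +/fl.

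**Figure D3:**
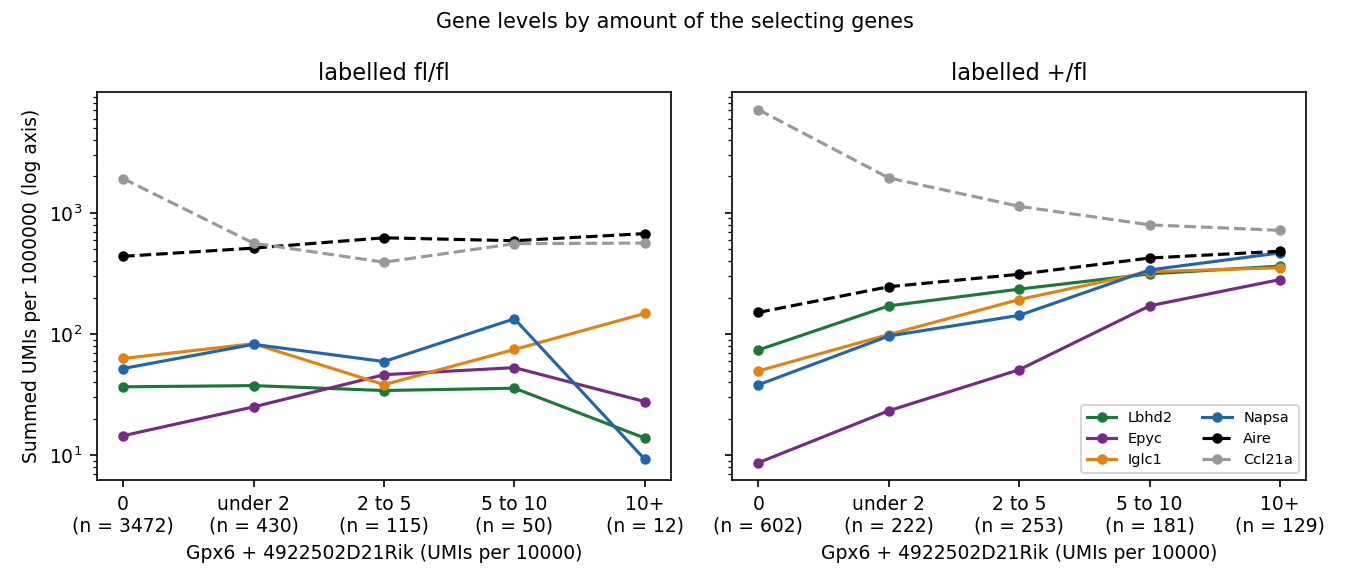
Summed UMIs per 1000000 (log axis) of the 4 companions, Aire and Ccl21a in eligible Aire-positive cells, by the amount of Gpx6 and 4922502D21Rik in UMIs per 10000, with the number of cells at each step. Lbhd2 lies between 13.9 and 37.6 CPM labelled fl/fl, while labelled +/fl all 4 companions go up at each step, Lbhd2 lying between 73.9 and 364 CPM.

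The neighbours of the selecting genes were looked at after the values were seen. Clec12a, a C-type lectin receptor of myeloid cells, starts 10.9 kb from 4922502D21Rik on the opposite strand, and it had the highest rank among genes higher in both libraries. It was at 63.0 CPM in Gpx6 mTECs labelled fl/fl and 8.005 CPM in comparators, and at 30.8 CPM against 3.17 CPM in the library labelled +/fl. A single cell gave 63 of its 153 UMIs in members labelled fl/fl, and without the highest cell the log2 ratio was 2.27 instead of 2.83. Clec12b, 43.7 kb from 4922502D21Rik, was at 15.6 CPM against 8.50 CPM labelled fl/fl and at 25.2 CPM against 0.587 CPM labelled +/fl. Gpx5, the neighbour of Gpx6 at 19.4 kb and a peroxidase of the epididymis, had 58 UMIs in 10 members labelled fl/fl (23.9 CPM) and 4 UMIs in all comparators. In the library labelled +/fl it had 18 UMIs in 3 members, 16 of them in 1 cell, and 0 in comparators.

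Of the 8 glutathione peroxidases listed, 3 besides Gpx6 had enough UMIs to be tested, which Gpx5 had not, and none of the 3 was 2-fold apart in either library. Gpx4, which protects membrane lipids, was at 797 CPM in Gpx6 mTECs labelled fl/fl and 738 CPM in comparators, and at 769 CPM against 748 CPM in the library labelled +/fl. Among 21 other antioxidant genes, 0 of 18 tested were 2-fold higher labelled fl/fl and 3 of 16 labelled +/fl. Those 3 were the mitochondrial peroxiredoxin Prdx3, the haem oxygenase Hmox1 and the sulfiredoxin Srxn1, with log2 ratios of 1.08, 1.43 and 1.06. Among all genes tested, 2.32% were higher labelled fl/fl and 9.71% labelled +/fl. Slc7a11, the cystine importer, was lower in both, at 21.4 CPM against 56.6 CPM labelled fl/fl and 14.8 CPM against 71.1 CPM labelled +/fl.

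Regulators of mature mTECs had medians close to comparators in Gpx6 mTECs, with log2 ratios of 0.05 labelled fl/fl and 0.17 labelled +/fl. Aire was at 599 CPM in Gpx6 mTECs labelled fl/fl and 438 CPM in comparators, and at 375 CPM against 151 CPM labelled +/fl, log2 ratios of 0.45 and 1.31, although Aire was also used by the rule. Fezf2 was at 520 CPM against 423 CPM labelled fl/fl and at 597 CPM against 218 CPM labelled +/fl. Besides Aire, of the 13 tested regulators labelled fl/fl none was 2-fold apart in either direction, and of 12 labelled +/fl 3 were higher and 2 lower. The higher ones were Fezf2, Foxn1 and Sirt1, and the lower ones were Klf4 and Trp63, a factor of basal epithelium. Of all genes tested labelled +/fl, 9.71% were higher and 7.31% lower. Irf8, an interferon-regulated factor of mTECs, was at 278 CPM against 285 CPM labelled fl/fl and 175 CPM against 139 CPM labelled +/fl.

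The comparators of the 2 libraries were not alike, and that bears on each ratio to them. Comparators labelled fl/fl had 438 CPM of Aire and those labelled +/fl 151 CPM. Ccl21a was at 1919 CPM in comparators labelled fl/fl and 7106 CPM in those labelled +/fl. When members and comparators were both held to at least 3 Aire UMIs, 99 Gpx6 mTECs and 1619 comparators were left labelled fl/fl and 409 and 106 labelled +/fl. With those cells the median log2 ratio of the 4 companions was 0.03 labelled fl/fl and 1.87 labelled +/fl, while that of Lbhd2 labelled +/fl came to 0.77.

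Genes 2-fold or more higher in Gpx6 mTECs of both libraries were few. Of 5342 genes tested in both, 16 (0.300%) were higher in both and 84 (1.57%) lower in both. Among the genes tested in both, 33 were at least 2-fold higher in Gpx6 mTECs labelled fl/fl, of which 16 (48.5%) were so labelled +/fl, and 494 were higher labelled +/fl, of which 16 (3.24%) were so labelled fl/fl. Of those 494, 386 (78.1%) had a ratio above 0 labelled fl/fl, and the median over the list was 0.26 on the log2 scale. Over all 5953 genes tested labelled fl/fl the median was 0.009, and the share above 0 was not counted. Within each library alone, 2.32% of genes tested labelled fl/fl and 9.71% labelled +/fl were at least 2-fold higher.

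The genes with the highest ratio in the weaker library include secreted peptides, a chemokine and proteins known from nerve, gut and eye. Calca, which encodes the neuropeptide CGRP, was at 756 CPM in Gpx6 mTECs labelled fl/fl and 264 CPM in comparators, and at 598 CPM against 62.2 CPM labelled +/fl. Vmo1, a homologue of an egg vitelline membrane protein, was at 750 CPM against 279 CPM labelled fl/fl and 391 CPM against 30.6 CPM labelled +/fl. Vmo1 was also widespread, in 82.96% of members labelled fl/fl and 84.1% of those labelled +/fl, against 47.9% and 14.9% of their comparators. Cxcl9, an interferon-induced chemokine that draws activated T cells, was at 1284 CPM against 325 CPM labelled fl/fl and 866 CPM against 388 CPM labelled +/fl. It was seen in 80.0% of members labelled fl/fl and 90.0% of those labelled +/fl, against 48.0% and 52.5% of comparators. A single cell held 1209 of the 3117 Cxcl9 UMIs in members labelled fl/fl, and without the highest cell the log2 ratio of Cxcl9 there was 1.39 instead of 1.98.

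The remaining genes of that group were seen in fewer cells. Prph, an intermediate filament protein of peripheral neurons, was at 147 CPM against 32.5 CPM labelled fl/fl, in 19 members, and at 44.1 CPM against 4.34 CPM labelled +/fl, in 51 members. Pyy, a gut hormone, was at 497 CPM against 152 CPM labelled fl/fl and 98.2 CPM against 31.9 CPM labelled +/fl, and 1 cell gave 575 of its 1207 UMIs labelled fl/fl. Pde6h, a phosphodiesterase subunit of cone photoreceptors, was at 57.2 CPM against 18.8 CPM and 25.3 CPM against 0.704 CPM in the libraries labelled fl/fl and +/fl. Each was in a minority of members, as is usual for single tissue antigens in mTECs. Crabp1, Mt3, Ly6h, Ang4, Tdo2, Hamp2 and Pifo completed the 15, with log2 ratios of 1.02 to 1.57 labelled fl/fl and 1.28 to 4.77 labelled +/fl. Of these, Hamp2 labelled fl/fl turned to -1.73 and Tdo2 labelled +/fl to -1.93 when cells were thinned to 5000 UMIs.

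**Figure D4:**
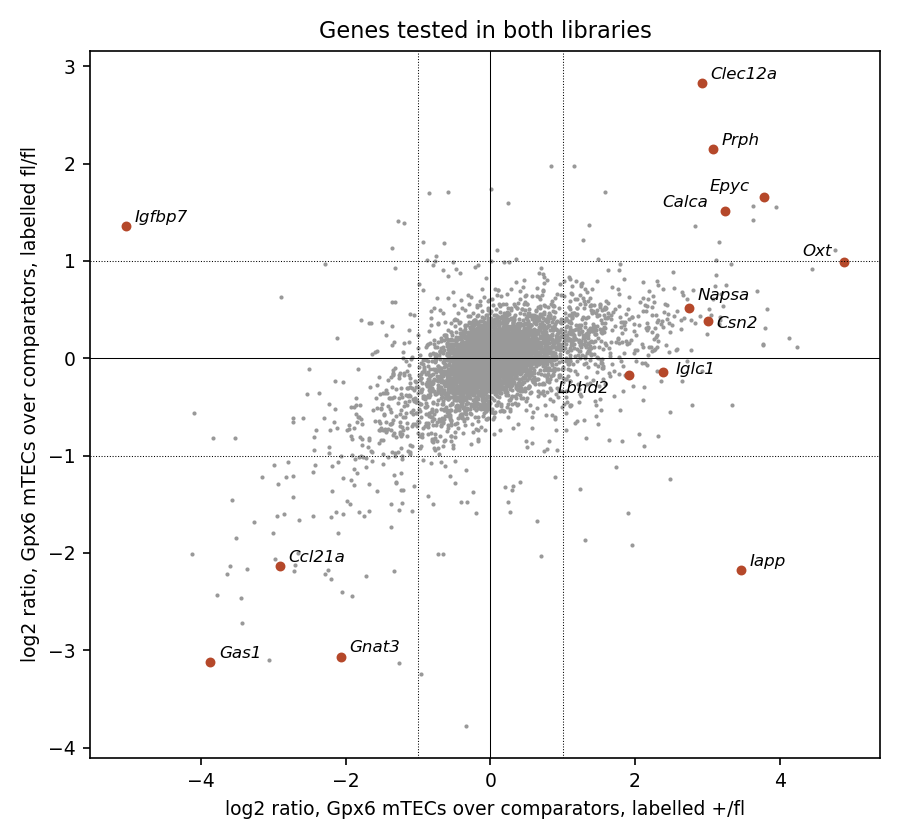
Log2 ratio of Gpx6 mTECs over comparators for each of 5342 genes tested in both libraries, labelled +/fl on the horizontal and labelled fl/fl on the vertical axis, without the genes of the rule. Dotted lines mark 2-fold, the named genes were picked for the plot after their values were seen, and Lbhd2, Iglc1 and Napsa lie right of the line for the library labelled +/fl but within 2-fold for the library labelled fl/fl.

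Among tested genes, antigens known to need Aire stood above comparators mainly in Gpx6 mTECs of the library labelled +/fl. Of the 18 genes listed, 12 were tested labelled fl/fl, with 1 at least 2-fold higher, 1 lower and a median log2 ratio of 0.34. Labelled +/fl, 8 were tested, with 7 higher, 1 lower and a median of 2.03. To be tested a gene had to reach 25 CPM in either group, so genes low in comparators entered only where members were high. The 2 medians thus cover different gene sets. Among all genes tested, 2.32% were higher labelled fl/fl and 9.71% labelled +/fl. With 3 Aire UMIs in both groups the medians were 0.03 labelled fl/fl and 1.80 labelled +/fl. Csn2, which encodes the milk protein beta-casein, was at 1221 CPM in Gpx6 mTECs labelled fl/fl and 938 CPM in comparators, and at 1113 CPM against 138 CPM labelled +/fl. Between the libraries, 6 of 9 tested genes of the list were at least 2-fold higher in Gpx6 mTECs labelled fl/fl than in those labelled +/fl. The share over all 3391 genes tested between libraries was 4.98%. Of the list, 9 of 9 were above 0 and the median was 1.33, against 3.16 for the same genes in comparators. Oxt, which encodes oxytocin, was at 142 CPM against 71.2 CPM labelled fl/fl and 91.2 CPM against 2.11 CPM labelled +/fl, in 6 and 21 members of these libraries. Apoc3, an apolipoprotein of liver and gut, was the lower one labelled +/fl, at 31.1 CPM against 116 CPM, and Csn1s2a, a further casein, was the lower one labelled fl/fl, at 11.9 CPM against 30.6 CPM.

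Antigens known to need Fezf2 were split. Of 10 genes listed, 0 of 7 tested were higher and 3 lower in Gpx6 mTECs labelled fl/fl, with a median log2 ratio of -0.48, and 3 of 5 were higher and 1 lower labelled +/fl, with a median of 1.09. The shares over all genes tested were 2.32% higher and 2.65% lower labelled fl/fl, and 9.71% and 7.31% labelled +/fl. These medians too cover different gene sets, chosen by the same limit of 25 CPM in either group. Resp18, a protein of neuroendocrine secretory granules, was at 197 CPM against 275 CPM labelled fl/fl and 223 CPM against 21.005 CPM labelled +/fl. Resp18 was within 2-fold between Gpx6 mTECs of the 2 libraries.

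Genes of antigen presentation by MHC class II lay above comparators in Gpx6 mTECs, within 2-fold in the library labelled fl/fl. Of 11 genes tested in both libraries, 0 were 2-fold higher labelled fl/fl and 7 labelled +/fl, with 11 of 11 ratios above 0 in each and medians of 0.24 and 1.07, or 0.105 and 0.76 with 3 Aire UMIs in both groups. Cd74, the invariant chain, was at 17238 CPM in Gpx6 mTECs labelled fl/fl and 14107 CPM in comparators, and at 14347 CPM against 6616 CPM labelled +/fl. H2-Aa, a class II alpha chain, was at 6217 CPM against 5138 CPM labelled fl/fl and 4277 CPM against 2096 CPM labelled +/fl. MHC class I genes stayed within 2-fold in both libraries, 11 of 11 tested, with medians of -0.17 and 0.14. Of the costimulatory genes, Cd40 was at 185 CPM against 133 CPM labelled fl/fl and 162 CPM against 49.2 CPM labelled +/fl, and Cd80 was at 46.5 CPM against 53.5 CPM and 31.0 CPM against 11.7 CPM. Of 12 tested genes of NF-kB signalling, which drives mTEC maturation, 0 were 2-fold higher labelled fl/fl and 2 labelled +/fl. These were Tnfrsf11a, the receptor RANK, and Tnfrsf11b, its decoy partner osteoprotegerin. Higher among all genes tested were 2.32% labelled fl/fl and 9.71% labelled +/fl.

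Chemokine genes lay on both sides of comparators. Ccl21a, which guides thymocytes into the medulla and marks immature mTECs, was at 436 CPM in Gpx6 mTECs labelled fl/fl and 1919 CPM in comparators, and at 948 CPM against 7106 CPM labelled +/fl. Ccl25, a chemokine of thymic epithelium, was at 342 CPM against 462 CPM labelled fl/fl and 511 CPM against 117 CPM labelled +/fl. Cxcl13, which attracts B cells, was at 165 CPM against 86.8 CPM labelled fl/fl and 92.2 CPM against 3.29 CPM labelled +/fl. Of 12 chemokine genes tested labelled fl/fl 1 was higher and 2 were lower, and of 13 labelled +/fl 4 were higher and 3 lower. Among all genes tested, 2.32% were higher and 2.65% lower labelled fl/fl, and 9.71% and 7.31% labelled +/fl.

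Genes of immature and of keratinising cells were lower in Gpx6 mTECs of both libraries. Krt5, a keratin of basal cells, was at 105 CPM in Gpx6 mTECs labelled fl/fl and 341 CPM in comparators, and at 155 CPM against 1503 CPM labelled +/fl. Of the immature mTEC genes, 2 of 7 tested were 2-fold lower labelled fl/fl and 5 of 8 labelled +/fl, with medians of -0.55 and -1.21. Of the keratinocyte-like genes, 4 of 7 were lower labelled fl/fl and 6 of 7 labelled +/fl, with medians of -2.18 and -2.25. With 3 Aire UMIs in both groups the keratinocyte-like medians were -1.05 labelled fl/fl and -0.52 labelled +/fl, and those of the immature genes -0.29 and -0.67. After thinning the keratinocyte-like median labelled fl/fl was -1.02. Krtdap, a keratinocyte differentiation peptide, was at 51.9 CPM against 240 CPM labelled fl/fl and 80.8 CPM against 538 CPM labelled +/fl. Of 15 keratin genes listed, 4 of 10 tested were lower labelled fl/fl and 5 of 9 labelled +/fl, and none was 2-fold higher, with medians of -0.78 and -1.12, or -0.49 and -0.66 with 3 Aire UMIs. Lower among all genes tested were 2.65% labelled fl/fl and 7.31% labelled +/fl.

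The 15 genes lowest in both libraries held growth-factor regulators beside these. Gas1, a growth-arrest gene that acts in Hedgehog signalling, was at 4.12 CPM in Gpx6 mTECs labelled fl/fl and 43.6 CPM in comparators, and at 12.5 CPM against 196 CPM labelled +/fl, 8.72 and 14.6 times lower. Fst, which encodes the activin antagonist follistatin, was at 2.06 CPM against 25.2 CPM labelled fl/fl and 6.67 CPM against 62.9 CPM labelled +/fl. Igfbp4, Igfbp5 and Igfbp6, which bind insulin-like growth factors, were lower in both, Igfbp5 at 47.8 CPM against 233 CPM labelled fl/fl and 144 CPM against 669 CPM labelled +/fl. Id1, an inhibitor of basic helix-loop-helix factors, was at 18.9 CPM against 85.7 CPM and 44.8 CPM against 295 CPM. Tagln, Spink5, Sbsn, Calml3, Ccl7 and Gnat3 were also among them, with log2 ratios of -3.07 to -2.17 labelled fl/fl and -3.78 to -2.07 labelled +/fl. When both groups were held to 3 Aire UMIs, the ratios of Igfbp6, Spink5, Sbsn, Calml3, Ccl7 and Gnat3 in the library labelled +/fl turned to 1.20, 0.17, 0.39, 1.42, 0.28 and 0.92, against 106 comparators.

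Early-response and interferon genes were also lower. Of 16 immediate early and heat shock genes, which rise when tissue is dissociated, 1 was 2-fold lower in Gpx6 mTECs labelled fl/fl and 12 labelled +/fl, with medians of -0.54 and -1.24. Atf3, a stress-induced factor, was at 205 CPM against 633 CPM labelled fl/fl and 246 CPM against 1347 CPM labelled +/fl. With 3 Aire UMIs in both groups the medians were -0.30 labelled fl/fl and -0.57 labelled +/fl. Their part in the other ratios was not tested. Of the interferon-stimulated genes, 3 of 10 tested were lower labelled fl/fl and 6 of 11 labelled +/fl, and none was 2-fold higher, with medians of -0.27 and -1.32, or -0.16 and -0.32 with 3 Aire UMIs. After thinning the median labelled fl/fl was -0.64. Of all genes tested, 2.65% labelled fl/fl and 7.31% labelled +/fl were lower. Isg15, a ubiquitin-like protein, was at 63.8 CPM against 174 CPM labelled fl/fl and 64.3 CPM against 431 CPM labelled +/fl. Cxcl9, although interferon-induced, went the other way, as given above.

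Cell-cycle genes lay on opposite sides of comparators in the 2 libraries. Of 9 tested labelled fl/fl, 4 were 2-fold higher in Gpx6 mTECs and 0 lower, with a median log2 ratio of 0.99, and of 10 tested labelled +/fl 0 were higher and 5 lower, with a median of -1.07. Among all genes tested, 2.32% were higher labelled fl/fl and 7.31% lower labelled +/fl. Top2a, a topoisomerase of dividing cells, was at 91.0 CPM in Gpx6 mTECs labelled fl/fl and 43.4 CPM in comparators, and at 48.3 CPM against 81.9 CPM labelled +/fl. Mki67 was at 74.5 CPM against 37.1 CPM labelled fl/fl and 40.6 CPM against 58.3 CPM labelled +/fl. In cells thinned to 5000 UMIs, an Mki67 UMI was found in 14.4% of Gpx6 mTECs and 7.80% of comparators labelled fl/fl, and in 11.5% and 7.07% labelled +/fl. After thinning the list's median was 0.02 labelled fl/fl and -1.55 labelled +/fl, and with 3 Aire UMIs it was 0.97 and -1.86. The share of cells and the summed level thus differ in direction labelled +/fl, and no order is read there.

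**Figure D5:**
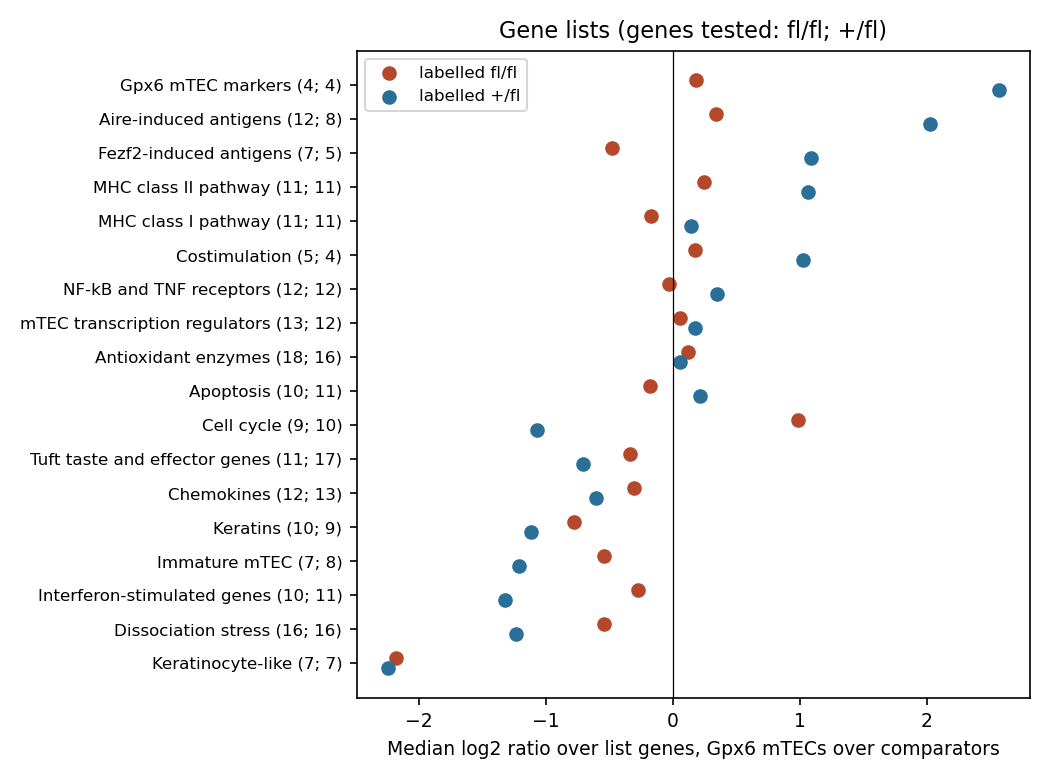
Median log2 ratio of Gpx6 mTECs over comparators for 18 gene lists, labelled fl/fl in red and labelled +/fl in blue, with the number of genes tested in each library in brackets. The companions have medians of 0.18 and 2.57 and the cell cycle genes of 0.99 and -1.07, while the keratinocyte-like genes lie at -2.18 and -2.25.

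Markers of other cells were followed in the same sums. Epcam was seen in 98.5% of Gpx6 mTECs labelled fl/fl and 98.2% of those labelled +/fl, at 934 and 936 CPM. The summed level of 12 T-lineage genes was 46.1 CPM in members and 52.6 CPM in comparators labelled fl/fl, and 58.6 CPM and 39.3 CPM labelled +/fl. The 13 myeloid and dendritic genes summed to 913 CPM in members and 917 CPM in comparators labelled fl/fl, and to 664 CPM and 199 CPM labelled +/fl, most of it Lyz2, a lysozyme, at 503 CPM in members labelled +/fl. The 9 B-lineage genes summed to 198 CPM in members and 180 CPM in comparators labelled fl/fl, and to 236 CPM and 121 CPM labelled +/fl. The 7 fibroblast genes summed to 159 CPM and 101.1 CPM labelled fl/fl, and to 93.1 CPM and 645 CPM labelled +/fl. Of these, 4 of 4 tested labelled +/fl were at least 2-fold lower in members, against 7.31% of all genes tested there. Their part in the ratios was not tested.

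The rule capped tuft genes in members and comparators alike, so their levels cannot show whether they mark the population. Of the tuft effector genes not used by the rule, 1 of 11 tested was higher and 2 were lower in Gpx6 mTECs labelled fl/fl, and 0 of 17 were higher and 3 lower labelled +/fl. Among all genes tested, 2.32% were higher and 2.65% lower labelled fl/fl, and 9.71% and 7.31% labelled +/fl. Gnat3, the taste G protein gustducin, was at 4.53 CPM against 45.3 CPM labelled fl/fl and 39.5 CPM against 169 CPM labelled +/fl. With 3 Aire UMIs in both groups its log2 ratio was -1.72 labelled fl/fl and 0.92 labelled +/fl. Pou2f3, the regulator that tuft cells need, was at 8.65 CPM in Gpx6 mTECs and 15.3 CPM in comparators labelled fl/fl, and at 44.5 CPM against 24.6 CPM labelled +/fl. Between the libraries Pou2f3 in Gpx6 mTECs was 4.72 times lower labelled fl/fl. Rgs13, a regulator of G-protein signalling, was at 82.4 CPM against 24.1 CPM labelled fl/fl and at 138 CPM in both groups labelled +/fl.

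Within Gpx6 mTECs, the 2 libraries were set against each other directly. Of 3391 genes with at least 50 UMIs over both and 50 CPM in either, 169 (4.98%) were 2-fold or more higher labelled fl/fl and 140 (4.13%) lower. All 4 companions were among the lower, with a median log2 ratio of -2.001, against 0.39 for the same genes in comparators. Lbhd2 was lower labelled fl/fl in comparators as well, at -0.99, while Epyc, Iglc1 and Napsa were at 0.68, 0.34 and 0.44 there. The 12 lowest genes were Xist, Fcrls, Vgll2, Stmn2, Clca1, Ovol3, Nlrp3, Lbhd2, Il5ra, Clca3a2, Myog and Clca3b.

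Most of these low genes stood out in Gpx6 mTECs of the library labelled +/fl and not in its comparators. Clca3a2, of the calcium-activated chloride channel regulators, was at 185 CPM in Gpx6 mTECs labelled fl/fl and 1482 CPM in those labelled +/fl, with 175 and 307 CPM in comparators. Clca3b was at 30.9 CPM labelled fl/fl and 248 CPM labelled +/fl, with 53.6 and 58.8 CPM in comparators, and Clca1 at 5.35 and 76.9 CPM, with 19.6 and 5.05 CPM. The 3 genes lie on chromosome 3 and are paralogs, so some of their UMIs could be shared. Il5ra, the interleukin-5 receptor alpha chain, was at 16.9 CPM in Gpx6 mTECs labelled fl/fl and 147 CPM in those labelled +/fl, with 14.7 and 18.5 CPM in comparators. Nlrp3, an inflammasome sensor, was at 7.41 CPM labelled fl/fl and 71.9 CPM labelled +/fl, with 10.3 and 15.3 CPM in comparators.

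Fcrls, an Fc receptor-like gene of macrophages, was at 3.71 CPM in Gpx6 mTECs labelled fl/fl and 108 CPM in those labelled +/fl, with 3.87 and 11.5 CPM in comparators. Vgll2, a cofactor of muscle genes, was at 4.12 and 72.5 CPM, with 5.21 and 12.2 CPM in comparators. In cells thinned to 5000 UMIs, Clca3a2 was seen in 41.7% of Gpx6 mTECs labelled fl/fl and 90.7% of those labelled +/fl, and Il5ra in 6.06% and 31.5%. These shares kept the order of the levels. Stmn2, Ovol3 and Myog differed as well between comparators, with log2 ratios of -3.44, -1.99 and -2.14 of labelled fl/fl over labelled +/fl.

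The 12 genes highest in Gpx6 mTECs labelled fl/fl were Ddx3y, Il9, Lce3d, Chil3, Ghrl, Rhox12, 1500015O10Rik, Klk1b11, Lgals7, Fabp3, Npy and Cga. Few cells carried most of them. All 146 Lce3d UMIs came from 1 cell, and 1 cell gave 171 of the 180 Il9 UMIs, and without the highest cell the log2 ratios were -0.38 and 1.85. Npy, a neuropeptide, was at 210 CPM in 15 members labelled fl/fl and 16.6 CPM in 8 members labelled +/fl, where 203 of 224 UMIs lay in 1 cell. Cga, the shared alpha chain of pituitary hormones, was at 128 CPM in 18 members labelled fl/fl and 9.86 CPM in 41 members labelled +/fl. Cga differed likewise in comparators, with 38.9 CPM labelled fl/fl and 0.587 CPM labelled +/fl.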

How the data were processed

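Freshly sorted thymus cells were captured with a 10x 3′ kit and sequenced on a NovaSeq, per the labels' protocols. The authors deposited 1 filtered matrix per library, which holds whole-number UMI counts that were not normalized. The matrix header carries software version 3.1.0, per the file headers, and Cell Ranger and Seurat are named without role or version, per the submitters' processing notes. The genome build is not given in the sources used here. Of 31053 gene identifiers, 30934 matched GENCODE M21.

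Members, comparators and gene lists were chosen with earlier results of these data known. UMIs were summed per group and library, scaled to 1000000 (CPM), and compared as log2 ratios with 1 CPM added, and a ratio of 2-fold was counted. The named genes were the 15 highest and 15 lowest by the weaker of both libraries' ratios, the 12 highest and 12 lowest between libraries, and listed genes, and 1 gene that met this rule is not reported here. Summed UMIs in Gpx6 mTECs were 2428467 labelled fl/fl and 13491662 labelled +/fl. Intervals are exact Poisson or Clopper-Pearson at 95% and cover counting error only. With 1 library per genotype no test was run.

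Alternatives were thinning to 5000 UMIs, a stricter cell limit (1000 genes, 2000 UMIs, 10% mitochondrial), a stricter member limit (6 UMIs and 4 per 10000), at least 3 Aire UMIs in both groups, the mean of per-cell CPM, doublet removal, TMM scaling from edgeR 4.0.16 in R 4.3.3, 10 CPM added, no filter on low counts and, added after the data were seen, leaving out the highest cell of each gene. The automatic doublet threshold called 0 and 1 cells in the libraries labelled fl/fl and +/fl and had not worked, so no doublets were removed in the values reported, and the alternative removed 6.57% and 4.08% of cells by score. Scripts were tested on simulated data and ran in Python 3.11.15 with scanpy 1.11.5, numpy 2.4.6, scipy 1.17.1, pandas 2.3.3 and matplotlib 3.10.9.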

Additional observations from a re-analysis of the deposited data

Results flagged for a closer look

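In 11 genes, picked after their values were seen, the ratio of Gpx6 mTECs over comparators was at least 2-fold in both libraries and opposite in direction, and the difference between libraries was not tested. Genes tested in both libraries numbered 5342, of which 16 were 2-fold or more higher in both and 84 lower in both. On the log2 scale Nusap1 was at 1.39 labelled fl/fl and -1.20 labelled +/fl, Prc1 at 1.41 and -1.28, and Ube2c at 1.13 and -1.36. Labelled +/fl the share of cells with a UMI ran the other way, at 7.65% of Gpx6 mTECs and 6.48% of comparators for Nusap1, 11.4% and 8.97% for Prc1 and 12.4% and 10.96% for Ube2c. These shares were not thinned, and the Gpx6 mTECs were deeper, with a median of 25170.5 UMIs against 12183.5. They thus cannot overrule the summed levels, and no order is read there. Igfbp7, an insulin-like growth factor binding protein, was at 1.36 labelled fl/fl and -5.03 labelled +/fl.

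The other genes were lower in Gpx6 mTECs labelled fl/fl and higher in those labelled +/fl. Iapp, the islet hormone amylin, was at -2.17 labelled fl/fl and 3.47 labelled +/fl, and Nefh, a neurofilament, at -1.24 and 2.48. A single cell gave 1631 of the 1820 Iapp UMIs in members labelled +/fl, so its higher level there rests on that cell. The kallikrein Klk1 was at -1.92 and 1.96, the cytochrome Cyp2a5 at -1.34 and 1.23, and the acute-phase gene Saa3 at -1.58 and 1.91. For Klk1, 1 cell gave 184 of the 401 UMIs in members labelled +/fl. Pglyrp1, a peptidoglycan recognition protein, was at -1.87 and 1.31, and the chemokine Ccl8 at -1.12 and 1.74.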

How the results depend on the processing

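No paired analysis was possible because each genotype has 1 library. The smaller share labelled fl/fl held with the stricter cell and member limits, thinning, 3 Aire UMIs and doublet removal. The other settings change gene levels only and were not run for shares. The share labelled +/fl was 5.92 to 8.85 times higher over kept cells and 10.9 to 16.2 times higher over Aire-positive cells. Over kept cells the share was 2.01% labelled fl/fl and 12.7% labelled +/fl with the stricter cell limit, 0.707% and 6.26% with the stricter member limit, 0.969% and 5.74% after thinning, and 1.21% and 8.02% with 3 Aire UMIs. Over Aire-positive cells it was 1.42% and 23% with the stricter member limit, 2.10% and 27.2% after thinning, and 4.74% and 61.7% with 3 Aire UMIs, and 40.4% labelled +/fl with the stricter cell limit. Genes higher in both libraries numbered 45 with the stricter member limit, 42 after thinning, 10 with 3 Aire UMIs and 205 with no filter, against 16. Genes lower in both numbered 15 with 3 Aire UMIs, 50 with 10 CPM added and 366 with no filter, against 84. Between libraries, with no filter 2542 genes were higher labelled fl/fl, against 169, and 838 lower, against 140, and 266 were lower after thinning. Of 123 values for single genes and lists, 103 were 2-fold or more, and of their 939 alternative values 926 kept their direction and 13 reversed. The 20 smaller values were not counted for direction, and among them Lbhd2 and Iglc1 labelled fl/fl changed sign. Sizes were less stable than directions. With 10 CPM added, 72 of the 123 values left their interval or, for lists, shifted by more than 0.5 on the log2 scale. Reversals aside, 70 values did so after thinning and 62 with 3 Aire UMIs. After thinning the reversed log2 ratios were Tdo2 labelled +/fl at -1.93, Hamp2 labelled fl/fl at -1.73 and Lce3d between libraries at -2.18. With 3 Aire UMIs they were Hamp2 labelled fl/fl at -0.58, Il9 and Lce3d between libraries at -0.68 and -0.96, and, labelled +/fl, Igfbp6 at 1.20, Spink5 at 0.17, Sbsn at 0.39, Calml3 at 1.42, Ccl7 at 0.28 and Gnat3 at 0.92. Without the highest cell Lce3d was at -0.38, all its UMIs labelled fl/fl being in that cell. For the other reversals the cause was not tested. The 135 cells labelled fl/fl limit every ratio there.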
